A study of Homo sapiens with 24 samples.

Results

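41 ribosome biogenesis factors were followed in PC9 cells, an established line from a human lung adenocarcinoma. They were chosen by gene symbol from a fixed list, and all 41 were found among the 37411 genes of the count table. Of these, 40 were among the 17409 genes with enough counts to be tested.

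Ribosomes are built in the nucleolus. RNA polymerase I transcribes the precursor of the ribosomal RNAs, small nucleolar RNPs (snoRNPs) guide its chemical modification and folding, and assembly factors cut the RNA and join it with ribosomal proteins into a small and a large subunit. Growing tumour cells make ribosomes at a high rate, and the genes for these factors are known to follow nutrient supply and growth signals.

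The cells were rinsed and given RPMI 1640 medium that contained or lacked the non-essential amino acid asparagine at 6 or 24 h before a common harvest. The medium carried vehicle (0.004% DMSO) or 200 nM ISRIB, a compound that stabilises active eIF2B, the exchange factor of translation initiation, and thereby dampens the integrated stress response. The 8 groups were vehicle with asparagine, vehicle without asparagine, ISRIB with asparagine and ISRIB without asparagine, each at 6 h and at 24 h, with 3 replicates per group and 24 RNA sequencing libraries in all. As every culture was harvested at the same endpoint, 24 h against 6 h compares the time spent in the changed medium.

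A library held 16737384 to 27495861 counts. The count of a tested member in a library ran from 302 to 83804. The epithelial markers EPCAM, KRT8, KRT18, KRT19, CDH1 and EGFR were present in every library, with medians from 361 to 4152 CPM (the count scaled to the effective library size). Deviations of the log2 counts from the gene mean had a slope on transcript GC content of -0.37 to 0.22 per 10 percentage points, depending on the library. The slope was most negative in replicate 3 of ISRIB with asparagine at 24 h (-0.37), replicate 3 of ISRIB without asparagine at 6 h (-0.35) and replicate 1 of ISRIB with asparagine at 6 h (-0.19), and for members with values in these groups the change with the 3 libraries left out is given for the larger changes.

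Nucleolin (NCL), an RNA-binding protein of the nucleolus, had the highest level per length of exon, 441 CPM per kilobase. It was followed by NPM1 (nucleophosmin, 279), DDX21 (an RNA helicase, 157), NOLC1 (a chaperone of box H/ACA snoRNPs, 124) and FBL (fibrillarin, the methyltransferase of box C/D snoRNPs, 119 CPM per kilobase). The lowest level of a tested member was that of the helicase DDX10, 4.17 CPM per kilobase. Levels of a member were close across the groups, and its highest group mean was 1.18 to 2.39 times its lowest, with a median of 1.58.

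RRN3, the factor that brings RNA polymerase I to its promoter, was listed with 0 or 1 count in every library and was not tested. Annotated pseudogenes of RRN3 held 70 to 134 counts together in a library. Pseudogenes also held 149% as many counts as NPM1, 145% as many as NHP2, 29.9% as many as DDX10 and 15.3% as many as PES1. For NOP56 the share was 11.2% and for NCL 5.64%. The values of these members are uncertain for this reason. How many reads were assigned to the wrong copy was not tested, so these shares are not a size of error. For 20 members, among them UBTF, POLR1C, NOP14, NOP16, LTV1 and GNL3, an annotated gene overlaps on the other strand. Whether counting used the strand is not given in the sources used here, so reads of such pairs cannot be told apart.

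Most members were lower after 24 h in the changed medium than after 6 h. Of the 40 tested members 34 had their highest group mean at 6 h, and 37 had their lowest at 24 h. The CPM of all members together, which was not tested, was 10970 ± 655 (SD, n = 3) at 6 h and 8179 ± 680 at 24 h in vehicle with asparagine. It was 11840 ± 554 and 9130 ± 1048 in ISRIB with asparagine, 10360 ± 830 and 9551 ± 707 in vehicle without asparagine, and 11570 ± 1921 and 8305 ± 596 in ISRIB without asparagine. The libraries of most negative GC slope held the highest sum of their group, 12480 CPM beside 11470 and 11570 in ISRIB with asparagine at 6 h, 13740 beside 10090 and 10890 in ISRIB without asparagine at 6 h, and 10240 beside 8163 and 8984 in ISRIB with asparagine at 24 h.

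In vehicle with asparagine 22 members fell and 0 rose between 6 and 24 h (edgeR quasi-likelihood test, adjusted p below 0.05), while 9.34% of all tested genes rose and 9.47% fell. In ISRIB with asparagine 21 fell and 1 rose, against 8.75% of all genes higher and 8.62% lower. In both of these comparisons 20 members fell. The comparisons share no library, but they share the estimate of spread. The share of all genes that fell in both was not counted, so the overlap is given as a description only. In ISRIB without asparagine 22 fell and 1 rose, against 14.5% higher and 17.8% lower. In vehicle without asparagine 10 fell and 2 rose, against 12.2% higher and 13.2% lower. The median member changed by -0.37, -0.35, -0.35 and -0.14 on the log2 scale in this order, and the median of all genes was between -0.003 and 0.007. BYSL, DDX21, DKC1, NOB1, NOLC1 and RRP12 fell in all 4 comparisons, and LYAR, NAT10, NOP16, NOP2, PES1, POLR1C, RRP1B, RRS1, TSR1 and WDR43 in 3. Falls in 2 were seen for MYBBP1A, NCL, NHP2, NOP14, NOP56, RRP9, UTP15 and WDR74, and in 1 for GAR1, GNL3, LTV1, PNO1 and UTP20. The other 11 (BOP1, DDX10, FBL, HEATR1, NOP10, NOP58, NPM1, POLR1A, POLR1B, UBTF and WDR12) fell in none.

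**Figure D1:**
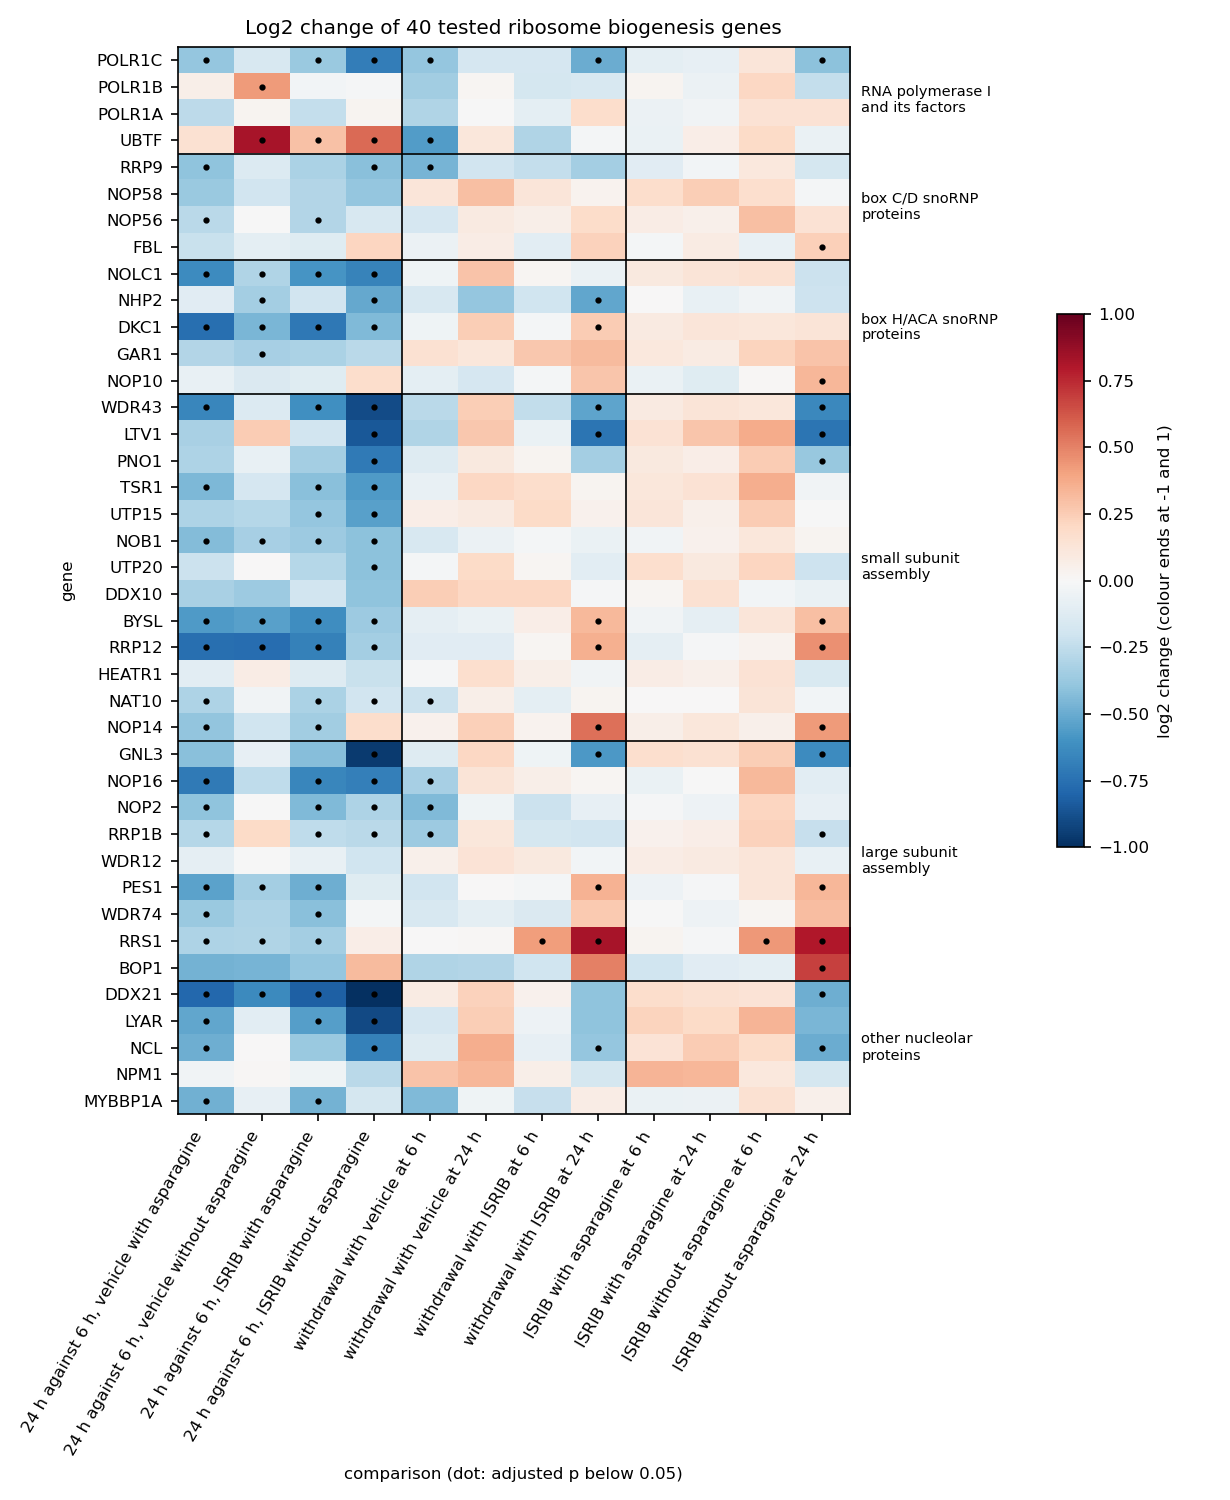
Log2 change of the 40 tested members (rows, by role) in the 12 comparisons of 2 groups (columns), blue for lower and red for higher, with a dot where the adjusted p was below 0.05. The 4 columns on the left, 24 h against 6 h, are mostly blue, with 22, 10, 21 and 22 fallen members, and the 2 columns of ISRIB against vehicle with asparagine have no dot.

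With the 3 libraries of most negative GC slope left out 26 members fell and 1 rose in ISRIB with asparagine. In ISRIB without asparagine 22 fell and 2 rose. In vehicle 33 fell and 0 rose with asparagine, and 16 fell and 3 rose without it. The vehicle groups held none of those libraries, but all groups share the estimate of spread. The shares of all genes called in this fit are not set beside these counts, which are therefore no result about the members. Pearson's r between transcript GC content and the log2 change over the 40 members was 0.51 in ISRIB without asparagine (0.23 over 17326 genes) and -0.20 to -0.11 in the other 3, a description across genes of the same libraries.

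The strongest fall was that of DDX21, a DEAD-box RNA helicase that acts in ribosomal RNA transcription and processing (chromosome 10, 68956128 to 68985073, plus strand, hg38). In ISRIB without asparagine it was at 883, 961 and 1425 CPM in replicates 1, 2 and 3 at 6 h and at 424, 550 and 394 CPM at 24 h. In vehicle with asparagine it was at 881, 899 and 1033 CPM at 6 h and at 610, 535 and 486 CPM at 24 h. All 12 libraries at 6 h (881 to 1425 CPM) were above all 12 at 24 h (394 to 709 CPM). The log2 change was -1.26 ± 0.16 (SE, adjusted p = 3.94e-06) in ISRIB without asparagine and -0.79 ± 0.16 in vehicle with asparagine. With the 3 libraries of most negative GC slope left out the former was -1.02.

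NOP16, an assembly factor of the large subunit (chromosome 5, 176383938 to 176388975, minus strand), was at 51.2, 58.1 and 55.8 CPM at 6 h and at 36.2, 35.9 and 30.5 CPM at 24 h in ISRIB without asparagine. The times did not overlap, and the log2 change was -0.69 ± 0.10 (SE, adjusted p = 1.27e-05). NOP16 also fell with asparagine, by 0.71 ± 0.10 in vehicle and by 0.65 ± 0.10 in ISRIB. With those 3 libraries left out it fell by 0.67 in ISRIB without and by 0.66 in ISRIB with asparagine.

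WDR43, a protein of the small-subunit processome (chromosome 2, 28894643 to 28948222, plus strand), was at 279, 301 and 406 CPM at 6 h in ISRIB without asparagine and at 168, 204 and 160 CPM at 24 h, a log2 change of -0.89 ± 0.13 (SE, adjusted p = 2.40e-05). No library of one time reached the other, and replicate 3 was the highest library of the 6 h group. NOLC1 (chromosome 10, 102152176 to 102163871, plus strand) was at 538, 578 and 722 CPM at 6 h and at 381, 415 and 358 CPM at 24 h, a log2 change of -0.67 ± 0.11 (SE). Replicate 3 of the 6 h group was again the highest library. With the same 3 libraries left out the changes were -0.71 for WDR43 and -0.54 for NOLC1, and both passed.

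POLR1C, a subunit that RNA polymerases I and III share (chromosome 6, 43509702 to 43562419, plus strand), was at 26.2, 31.3 and 25.6 CPM at 6 h and at 18.5, 16.1 and 16.8 CPM at 24 h in ISRIB without asparagine. These libraries did not overlap, and the log2 change was -0.69 ± 0.11 (SE, adjusted p = 7.16e-05). The 3 libraries at 24 h were below all 21 other libraries (21.1 to 34.7 CPM). Every group of every tested member was searched for such a separation, and its share over all genes was not counted. The change was -0.74 with those of most negative GC slope left out.

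The promoters of these fallen members are printed as an example of the sequence they carry. The windows are RefSeq's, on GRCh38.p14, from 250 bases before to 50 bases after a transcript start, 5′ to 3′ on the strand of the gene. Capitals mark matches to CACGTG (the E-box), TCGCGAGA (the core of the motif bound by BANP) or CCGGAAGT (an ETS motif), on either strand, and another motif searched, TGATGNAA (the C/EBP-ATF response element), had no match. DDX21 lies at chr10:68955920-68956219 on the plus strand, NOP16 at chr5:176388549-176388848 on the minus strand, WDR43 at chr2:28894417-28894716 on the plus strand and POLR1C at chr6:43516839-43517138 on the plus strand.
DDX21: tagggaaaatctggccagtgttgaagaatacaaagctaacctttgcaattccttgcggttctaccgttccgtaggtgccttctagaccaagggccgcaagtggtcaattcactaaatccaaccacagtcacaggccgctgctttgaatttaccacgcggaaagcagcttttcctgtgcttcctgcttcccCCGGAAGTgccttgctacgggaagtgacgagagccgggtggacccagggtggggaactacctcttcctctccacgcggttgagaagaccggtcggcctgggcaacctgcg
NOP16: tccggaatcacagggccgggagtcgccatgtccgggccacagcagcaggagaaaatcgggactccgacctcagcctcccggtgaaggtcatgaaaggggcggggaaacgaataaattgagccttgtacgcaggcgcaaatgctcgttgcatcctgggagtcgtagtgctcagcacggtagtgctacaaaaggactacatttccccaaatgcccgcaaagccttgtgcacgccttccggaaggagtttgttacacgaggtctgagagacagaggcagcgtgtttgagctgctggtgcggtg
WDR43: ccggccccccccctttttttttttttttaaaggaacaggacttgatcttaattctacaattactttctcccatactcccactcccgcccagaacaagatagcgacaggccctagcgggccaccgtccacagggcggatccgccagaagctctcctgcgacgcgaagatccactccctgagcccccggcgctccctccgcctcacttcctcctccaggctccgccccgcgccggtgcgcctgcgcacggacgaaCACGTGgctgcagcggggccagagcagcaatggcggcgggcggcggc
POLR1C: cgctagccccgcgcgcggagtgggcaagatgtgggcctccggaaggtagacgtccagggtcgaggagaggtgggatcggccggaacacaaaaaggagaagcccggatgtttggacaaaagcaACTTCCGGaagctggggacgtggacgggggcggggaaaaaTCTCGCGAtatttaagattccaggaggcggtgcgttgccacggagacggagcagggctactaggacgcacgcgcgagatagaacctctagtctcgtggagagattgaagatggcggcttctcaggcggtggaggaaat

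The window of WDR43 holds an E-box, that of DDX21 an ETS match (its E-box is in a second window), that of POLR1C an ETS match and a BANP core, and that of NOP16 none of the 4 motifs. Windows were found for 35 members, 9 of them with 2 windows, and BOP1, NOLC1, NOP58, RRP12, RRP1B and RRS1 were not matched. An E-box was in a window of 17 of the 35 (48.6%), against 12.3% of the 10033 tested genes with a window and 8.77% of all 27305 genes in the table. Per window the shares were 38.6% of 44 member windows and 7.26% of 35116. Of the 18 E-box matches 17 started between 65 bases before and 35 bases after the transcript start. The ETS motif was in 8 members (22.9%, against 9.65% of tested genes), the BANP core in 5 (14.3%, against 2.77%) and TGATGNAA in 0 (against 2.71%). The members with these windows had a median GC content of 63.7%, and tested genes 64.7%. The 17 tested members with an E-box and the 17 with a window but no E-box are set side by side as counts of falls between the times, 10 and 8 in vehicle with asparagine and 11 and 8 in ISRIB without asparagine. A match is a description of the letters and shows no binding.

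Among the box H/ACA snoRNP proteins, which carry the guide RNAs for pseudouridylation, NOLC1 and DKC1 (dyskerin, the pseudouridine synthase) fell in all 4 comparisons of the times. DKC1 had 439, 469 and 481 CPM at 6 h in vehicle with asparagine and 295, 277 and 253 CPM at 24 h, a log2 change of -0.75 ± 0.09 (SE, adjusted p = 5.24e-06). All 12 libraries at 6 h (425 to 543 CPM) lay above all 12 at 24 h (253 to 380 CPM). NHP2 and GAR1 fell in vehicle without asparagine (-0.34 ± 0.11 and -0.33 ± 0.12, SE), NHP2 also in ISRIB without asparagine (-0.51 ± 0.11, and -0.60 with those libraries left out), and NOP10 in none.

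Of the 4 box C/D snoRNP proteins 2 fell in vehicle with asparagine, 1 in each ISRIB comparison and 0 in vehicle without asparagine. RRP9, a U3 snoRNP protein (chromosome 3, 51933430 to 51941941, minus strand), was at 42.2, 43.9 and 41.3 CPM at 6 h in vehicle with asparagine and at 30.5, 33.4 and 32.2 CPM at 24 h. It fell there by 0.41 ± 0.13 (SE, adjusted p = 0.0356) and in ISRIB without asparagine by 0.42 ± 0.13, where the highest library at 24 h (27.5 CPM) overlapped the lowest at 6 h (26.8 CPM). The lowest 6 h library was replicate 3, and with the libraries of most negative GC slope left out the change was -0.54. NOP56, a core protein of these particles, fell by 0.27 ± 0.09 and 0.29 ± 0.09 in the comparisons with asparagine, and FBL and NOP58 passed the test in none of the 4.

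Of the 13 small-subunit factors 7 fell in vehicle with asparagine, 8 in ISRIB with asparagine, 10 in ISRIB without asparagine and 3 in vehicle without asparagine. BYSL, RRP12 and NOB1, which act in processing and late maturation of the small subunit, fell in all 4. RRP12 was at 111, 128 and 123 CPM at 6 h and at 65.3, 77.1 and 71.4 CPM at 24 h in vehicle with asparagine, a log2 change of -0.76 ± 0.12 (SE, adjusted p = 0.000211), and the groups did not overlap. PNO1, an RNA-binding factor of the pre-40S particle, was at 106, 111 and 147 CPM at 6 h and at 67.3, 85.2 and 70.1 CPM at 24 h in ISRIB without asparagine (-0.71 ± 0.13, SE). It passed the test in that comparison of the times and in no other, and the change was -0.54 with the libraries of most negative GC slope left out.

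Of the 9 large-subunit factors 6 fell in each comparison with asparagine, 4 in ISRIB without asparagine and 2 in vehicle without asparagine. GNL3 (nucleostemin, a nucleolar GTPase; chromosome 3, 52681156 to 52694492, plus strand) was at 128, 135 and 203 CPM at 6 h and at 73.4, 93.0 and 72.9 CPM at 24 h in ISRIB without asparagine. Its log2 change was -0.96 ± 0.16 (SE, adjusted p = 0.000128), and -0.72 with the libraries of most negative GC slope left out. PES1, of the PeBoW complex, passed as fallen in 3 of the 4 comparisons, its partner BOP1 in none and WDR12, the third subunit, in none. The log2 changes of PES1 were -0.53, -0.34 and -0.49 in vehicle with, vehicle without and ISRIB with asparagine. Those of BOP1 were -0.47, -0.46 and -0.39. In ISRIB without asparagine they were -0.12 for PES1 and 0.32 for BOP1. A difference between the partners was not tested.

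Among the other nucleolar proteins DDX21 fell in all 4 comparisons of the times, LYAR in 3, NCL and MYBBP1A in 2 and NPM1 in none. NPM1 had a log2 change of -0.04 ± 0.23 (SE, adjusted p = 0.94) in vehicle with asparagine. The largest adjusted p among the members was that of NPM1 in both comparisons with asparagine, of WDR12 in vehicle without asparagine (-0.00 ± 0.13, adjusted p = 0.99) and of POLR1B in ISRIB without asparagine (-0.01 ± 0.13, adjusted p = 0.95).

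UBTF, the upstream binding factor that keeps ribosomal DNA open and recruits RNA polymerase I (chromosome 17, 44205033 to 44221626, minus strand), went the other way. In vehicle without asparagine it was at 106, 97.5 and 92.2 CPM at 6 h and at 181, 170 and 172 CPM at 24 h. The libraries did not overlap, and the log2 change was 0.82 ± 0.09 (SE, adjusted p = 1.07e-06). UBTF also rose in ISRIB without asparagine (0.57 ± 0.09) and in ISRIB with asparagine (0.29 ± 0.09), and by 0.475 and 0.37 with the libraries of most negative GC slope left out. In vehicle with asparagine it was at 153, 146 and 137 CPM at 6 h and at 159, 160 and 166 CPM at 24 h (0.15 ± 0.09, SE, adjusted p = 0.27). POLR1B, the second largest subunit of RNA polymerase I, rose in vehicle without asparagine (0.43 ± 0.13, SE, adjusted p = 0.0199), where it was at 59.9, 45.0 and 53.5 CPM at 6 h and at 71.6, 67.9 and 73.4 CPM at 24 h. POLR1A, the largest subunit, passed the test in none of the 16 comparisons.

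**Figure D2:**
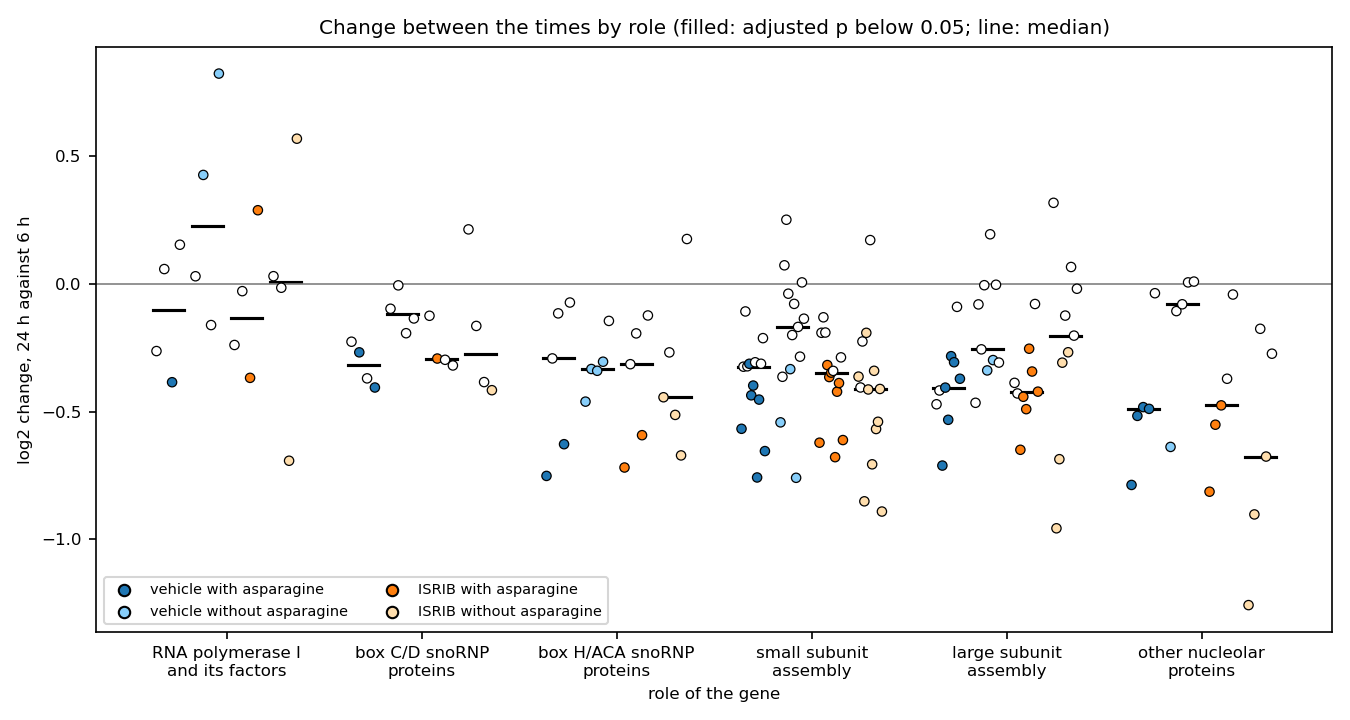
Log2 change from 6 to 24 h (vertical axis) of each tested member, by role (horizontal axis) and by drug and medium (colours). Filled points had an adjusted p below 0.05 and lines are medians; DDX21 in ISRIB without asparagine is lowest at -1.26 and UBTF in vehicle without asparagine highest at 0.82.

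The calls held in part when single libraries were left out. Of the 22 called members in vehicle with asparagine 13 passed whichever library was left out, as did 13 of 22 in ISRIB with asparagine, 17 of 23 in ISRIB without asparagine and 5 of 12 in vehicle without asparagine. The count in vehicle with asparagine was 14 without replicate 2 at 6 h, 13 without replicate 3 at 6 h and 14 without replicate 3 at 24 h, and in vehicle without asparagine 6 without replicate 2 at 6 h. In ISRIB without asparagine 21 were called without replicate 3 at 6 h. Fitted to its own 6 libraries, ISRIB with asparagine gave 6 called members.

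Single markers of other cell types moved with the times, in both directions. Of the 4 with enough counts to be tested 1 rose and 1 fell in each of the 4 comparisons. The 11 markers summed to 29.1 to 63.7 CPM in a library at 6 h and to 13.0 to 19.8 CPM at 24 h. CDH5, an endothelial cadherin, had the widest range (2.45 to 55.3 CPM) and fell by 2.49 to 3.59 on the log2 scale. At its lowest it was a minor part of the sum, which was at least 13.0 CPM in every library. PECAM1, another endothelial gene, reached 5.66 CPM and COL1A1, a fibroblast collagen, 13.1 CPM. PECAM1 rose in vehicle with asparagine (1.63 ± 0.29, SE), ISRIB with asparagine (1.60 ± 0.29) and vehicle without asparagine (0.82 ± 0.30), and COL1A1 in ISRIB without asparagine (0.86 ± 0.22). PTPRC, CD3E, VWF, COL3A1, PDGFRB, HBB and ALAS2 were at most 0.398 CPM in every library, with HBB at 0 in 22 libraries, CD3E in 18, ALAS2 in 17 and COL3A1 in 15. Of the 6 epithelial markers 2 or 3 fell between the times, among them EGFR (-0.95 ± 0.13, SE, in vehicle with asparagine). Their part in the results was not tested. All libraries are bulk RNA of cultures of the PC9 line. Within such a culture a change in the share of cells that express a gene and a change of its RNA per cell cannot be told apart.

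At 6 h after asparagine withdrawal with vehicle 7 members fell and 0 rose. Of all tested genes 3.31% rose and 1.26% fell. The fallen members were UBTF and POLR1C of the RNA polymerase I group, NOP2, RRP1B and NOP16 of the large-subunit group, NAT10 (an RNA cytidine acetyltransferase) of the small-subunit group and RRP9. The median member changed by -0.13 on the log2 scale (0.005 over all genes), and 31 of 40 had a value below 0. The share of all genes below 0 was not counted. Pearson's r between transcript GC content and the log2 change was -0.49 over the 40 members and -0.30 over 17326 genes. Median GC content was 54.1% for the 7 fallen members and 47.8% for those not called. This is a description across genes of the same libraries.

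UBTF was at 153, 146 and 137 CPM with asparagine and at 106, 97.5 and 92.2 CPM without it at 6 h. The groups were far apart, with a log2 change of -0.56 ± 0.09 (SE, adjusted p = 0.000537). NOP2, a methyltransferase of the large-subunit RNA, was at 217, 244 and 254 CPM with and at 167, 178 and 180 CPM without asparagine, a log2 change of -0.44 ± 0.09 (SE, adjusted p = 0.00227). RRP1B was at 118, 105 and 121 CPM with and at 86.0, 84.6 and 96.1 CPM without asparagine (-0.37 ± 0.08, SE). None of these 3 members overlapped between the media, and neither did RRP9, POLR1C, NOP16 and NAT10. Some members that were not called, among them MYBBP1A and POLR1A, did not overlap either. The share of all genes without overlap was not counted.

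The other 4 changed by -0.46 ± 0.13 (RRP9), -0.39 ± 0.11 (POLR1C), -0.33 ± 0.09 (NOP16) and -0.22 ± 0.06 (NAT10) on the log2 scale with SE, with adjusted p of 0.0402 to 0.0484. RRS1, an assembly factor of the 5S particle, had the largest adjusted p (0.00 ± 0.09, SE, adjusted p = 0.99), after HEATR1 (-0.01 ± 0.11, adjusted p = 0.98). UBTF and NOP2 passed whichever library was left out. Leaving out any of the 6 libraries left 2 to 4 called members, and 2 without replicate 2 of vehicle without asparagine.

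After 24 h of withdrawal with vehicle 0 members passed the edgeR test, as did 0.00574% of all genes. An unadjusted p below 0.05 was found for 5 of 40 members and for 1271 of 17409 genes. DESeq2 and limma also called 0 members. The smallest adjusted p was that of NHP2 (-0.39 ± 0.11, SE, adjusted p = 0.61), and PES1 had the largest (0.00 ± 0.11, adjusted p = 0.99). UBTF was at 159, 160 and 166 CPM with and at 181, 170 and 172 CPM without asparagine (0.11 ± 0.09, SE, adjusted p = 0.70).

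The change of this response between the times was tested directly. UBTF differed by 0.67 ± 0.13 (SE, adjusted p = 0.00691) and RRP1B by 0.48 ± 0.11 (SE, adjusted p = 0.0339), both higher at 24 h, against 0.195% of all genes higher and 1.03% lower. The remaining 38 tested members did not pass, with RRP12 at -0.00 ± 0.17 (adjusted p = 1.00). The call of UBTF held without any 1 of the 12 libraries. Both members were called without replicate 2 of vehicle with asparagine at 6 h, replicate 3 of vehicle without asparagine at 6 h or replicate 2 of vehicle without asparagine at 24 h, and 1 without any of the other 9 libraries.

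**Figure D3:**
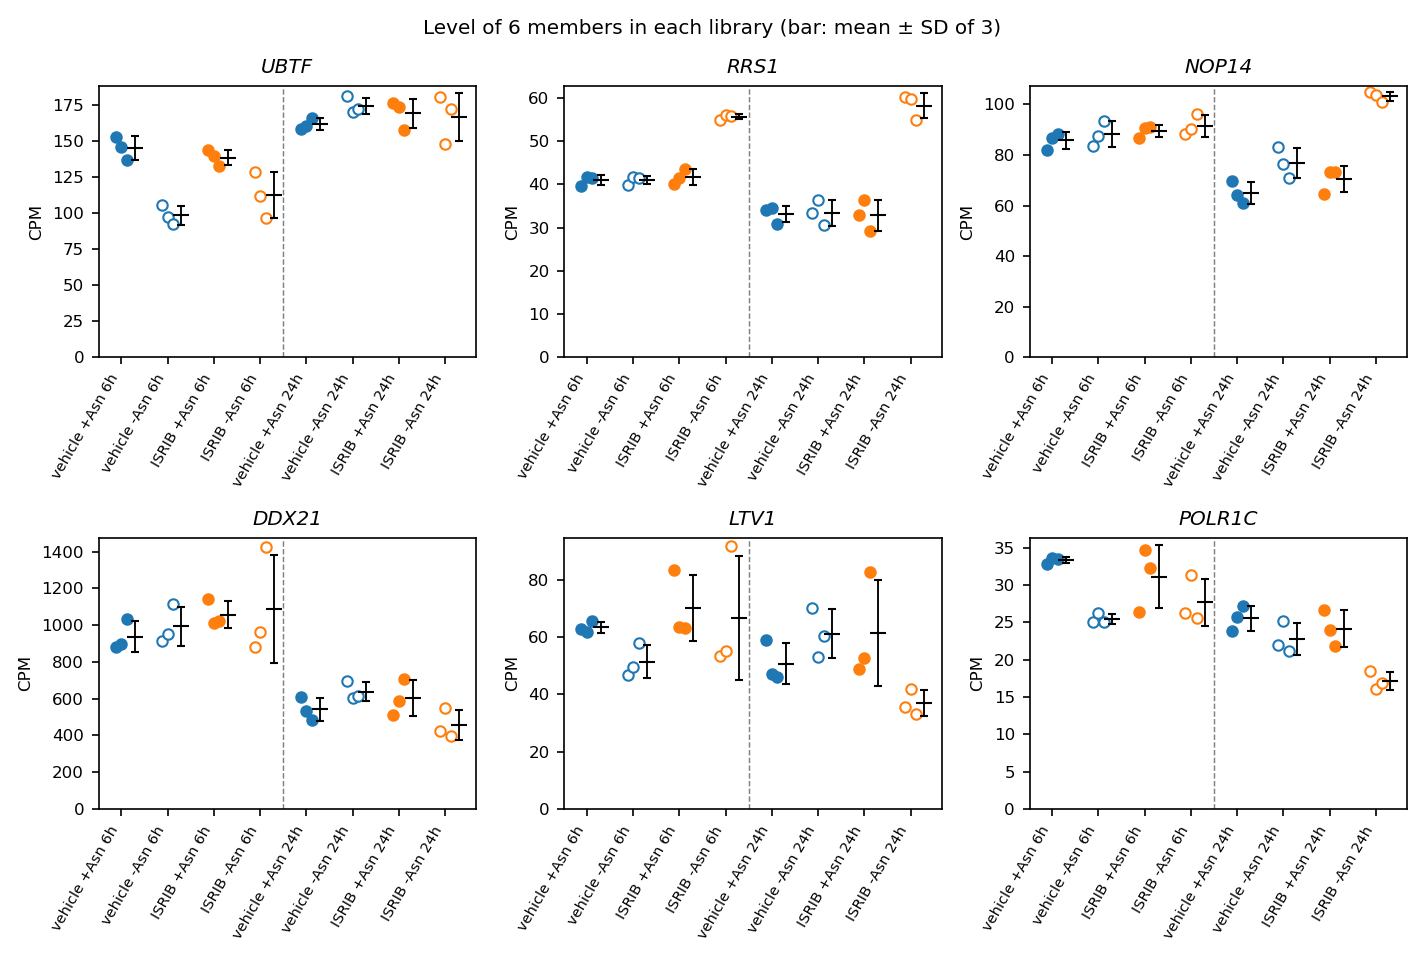
CPM of 6 members in each of the 24 libraries (vertical axis) by group (horizontal axis), blue for vehicle, orange for ISRIB, filled with and open without asparagine, with the mean and SD of 3 beside the points and a dashed line between 6 and 24 h. RRS1 is at 54.8 to 60.1 CPM in the 6 libraries of ISRIB without asparagine and at 29.2 to 43.7 CPM in the other 18.

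With asparagine in the medium no change of a member with ISRIB was detected. The log2 changes ran from -0.198 to 0.336 at 6 h and from -0.119 to 0.331 at 24 h. At 6 h and at 24 h 0 of 40 passed the edgeR test, 0 had an unadjusted p below 0.05, and DESeq2 and limma called 0. Of all genes 0.0% passed at either time, with 203 and 248 at an unadjusted p below 0.05. The largest adjusted p were those of WDR74 and NHP2 at 6 h (log2 changes of -0.00 ± 0.11 and 0.00 ± 0.11, SE) and of NAT10 and NOP16 at 24 h (0.00 ± 0.06 and -0.00 ± 0.10).

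Without asparagine ISRIB raised RRS1 at 6 h and changed 16 members at 24 h. RRS1 (chromosome 8, 66429028 to 66430733, plus strand, a gene that overlaps AC009879.2 on the same strand) was at 39.9, 41.8 and 41.4 CPM with vehicle and at 54.9, 56.0 and 55.8 CPM with ISRIB at 6 h. At 24 h it was at 33.3, 36.4 and 30.5 CPM with vehicle and at 60.1, 59.7 and 54.8 CPM with ISRIB. The groups did not overlap at either time. The log2 changes were 0.44 ± 0.09 (SE, adjusted p = 0.00422) at 6 h and 0.80 ± 0.09 (SE, adjusted p = 1.60e-06) at 24 h, and both passed without any 1 library.

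At 6 h RRS1 was the only called member, while 0.551% of all genes rose and 1.64% fell. Values above 0 were seen in 36 of 40 members, with a median of 0.14 on the log2 scale (0.008 over all genes). The share of all genes above 0 was not counted. Replicate 3 of this ISRIB group, with a GC slope of -0.35, held the highest sum of the members. That sum was 13740 CPM, beside 10090 and 10890 in replicates 1 and 2. The sign count without this library is not given. NOP10 had the largest adjusted p (0.01 ± 0.12, SE, adjusted p = 0.99). RRS1 did not pass in this comparison with no filter on low counts or in a fit to these 6 libraries alone (0 members in both). With an offset for GC content 5 members rose, and 11 with that offset and the replicate block together. The shares of all genes called in those fits are not given. The count was 2 without replicate 1 of ISRIB and 2 without replicate 3 of vehicle.

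At 24 h 8 members rose and 8 fell, against 10.1% of all genes higher and 11.6% lower. The risen were RRS1, BOP1 and PES1 of the large subunit, NOP14, RRP12 and BYSL of the small subunit, FBL and NOP10. The fallen were LTV1, WDR43 and PNO1 of the small subunit, GNL3 and RRP1B of the large subunit, NCL, DDX21 and POLR1C. UTP15 had the largest adjusted p (-0.00 ± 0.11, SE, adjusted p = 1.00).

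NOP14, a core component of the small-subunit processome (chromosome 4, 2937933 to 2963385, minus strand), was at 83.1, 76.5 and 71.1 CPM with vehicle and at 104.8, 103.7 and 101.1 CPM with ISRIB. Its log2 change was 0.42 ± 0.08 (SE, adjusted p = 0.000663). The 3 ISRIB libraries were above all 21 other libraries of the study (61.2 to 96.4 CPM). LTV1, a late small-subunit factor (chromosome 6, 143843344 to 143863812, plus strand), was at 70.2, 53.0 and 60.5 CPM with vehicle and at 35.6, 42.0 and 33.3 CPM with ISRIB. Its log2 change was -0.73 ± 0.20 (SE, adjusted p = 0.0129), and the ISRIB libraries were below all 21 others (46.2 to 91.8 CPM).

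GNL3 was at 136, 117 and 117 CPM with vehicle and at 73.4, 93.0 and 72.9 CPM with ISRIB, a log2 change of -0.63 ± 0.16 (SE). Its ISRIB libraries were also below all 21 others (95.1 to 203 CPM). In a search of every group of every tested member only POLR1C, NOP14, LTV1 and GNL3 had a group apart from all other libraries. How often this occurs among all genes was not counted. NCL was at 3531, 2856 and 2994 CPM with vehicle and at 2275, 2370 and 1994 CPM with ISRIB. It fell by 0.50 ± 0.14 (SE, adjusted p = 0.0128), with no overlap. WDR43 fell by 0.64 ± 0.13 (SE), from 292, 268 and 269 CPM to 168, 204 and 160 CPM.

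RRS1, NOP14 and WDR43 passed whichever of the 6 libraries was left out. The count of called members fell from 16 to 6 without replicate 1 of vehicle, 5 without replicate 1 of ISRIB, 8 without replicate 3 of vehicle and 6 without replicate 3 of ISRIB.

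GC content ran with the direction of these changes. The 8 risen members had a median transcript GC content of 56.7% (48.0% to 65.2%) and the 8 fallen 41.7% (40.3% to 50.6%). Pearson's r between GC content and the log2 change was 0.62 over the 40 members and 0.40 over 17326 genes, a description across genes that share the same libraries. The GC slopes were 0.20, -0.05 and 0.15 in the ISRIB libraries and -0.17, -0.01 and -0.17 in the vehicle libraries. With an offset for GC content 8 members rose and 12 fell, given without the share of all genes in that fit. RRS1 then changed by 0.65, NOP14 by 0.38, LTV1 by -0.57, GNL3 by -0.47, WDR43 by -0.46 and NCL by -0.46, and each still passed, while BYSL, FBL, PES1 and POLR1C no longer did.

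**Figure D4:**
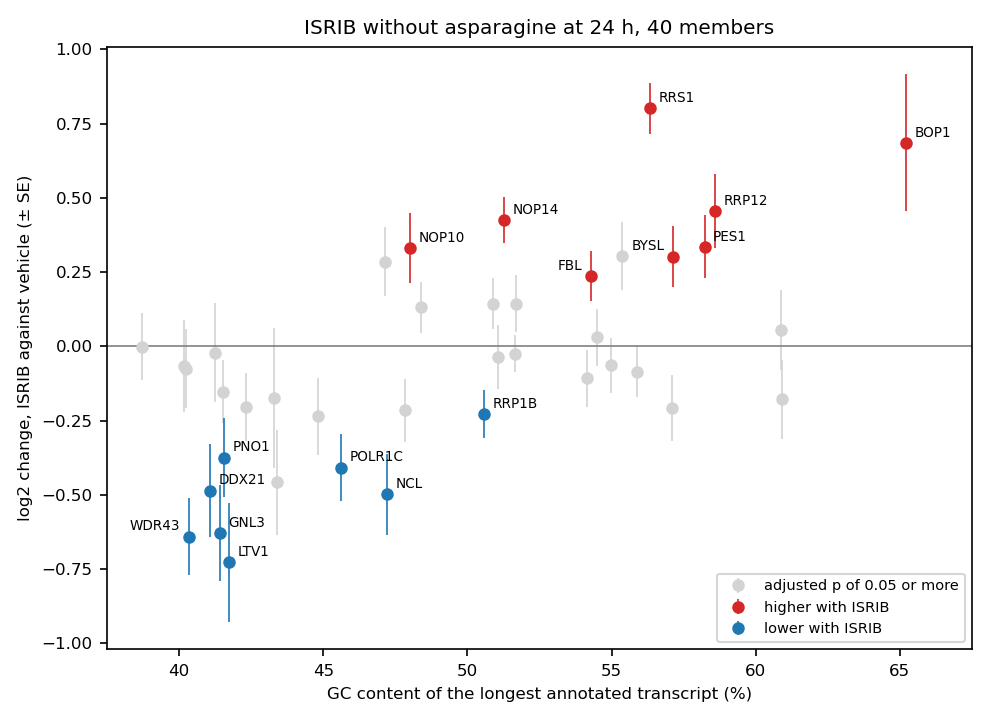
Log2 change with ISRIB against vehicle without asparagine at 24 h (vertical axis, ± SE) by the GC content of the longest annotated transcript (horizontal axis) for the 40 tested members. The 8 risen members (red) have a median GC content of 56.7% and the 8 fallen (blue) of 41.7%.

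Withdrawal in the presence of ISRIB shares its ISRIB libraries without asparagine with the comparison above, so the values are given side by side and not as separate support. At 6 h RRS1 rose (0.41 ± 0.09, SE, adjusted p = 0.0091) and 0 members fell, against 1.63% of all genes higher and 0.666% lower. The call was lost without replicate 2 of ISRIB with asparagine (0 members), and 2 members were called without replicate 1 of ISRIB without asparagine. RRP12 had the largest adjusted p there (0.02 ± 0.12, SE, adjusted p = 0.98).

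At 24 h 6 members rose (RRS1, NOP14, PES1, BYSL, DKC1 and RRP12) and 6 fell (NHP2, POLR1C, WDR43, LTV1, GNL3 and NCL), against 9.97% higher and 12.2% lower. RRS1 was at 33.0, 36.4 and 29.2 CPM with and at 60.1, 59.7 and 54.8 CPM without asparagine (0.82 ± 0.09, SE, adjusted p = 7.29e-07, and 0.73 with the libraries of most negative GC slope left out). NOP14 was at 64.5, 73.3 and 73.3 CPM with asparagine, and its log2 change was 0.55 ± 0.08 (SE, adjusted p = 3.78e-05). LTV1 was at 49.0, 52.7 and 82.8 CPM with asparagine, and its change of -0.73 ± 0.20 (SE) was -0.475 with the libraries of most negative GC slope left out.

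RRS1, NOP14, NHP2, POLR1C and WDR43 passed whichever library was left out. The count was 6 without replicate 1 and 7 without replicate 3 of ISRIB without asparagine, 7 without replicate 3 of ISRIB with asparagine, and 4 in a fit to these 6 libraries alone. DDX10 had the largest adjusted p (-0.01 ± 0.16, SE, adjusted p = 0.97). The median GC content was 56.7% for the risen and 43.7% for the fallen, and with the GC offset 10 rose and 12 fell. The share of all genes called with that offset is not given. NOP14 was also the only member whose response to withdrawal with ISRIB differed between 24 and 6 h (0.52 ± 0.11, SE, adjusted p = 0.0133), where 0.718% of all genes were higher and 1.95% lower. This comparison holds all the libraries of most negative GC slope. Pearson's r between GC content and the difference was 0.70 over the 40 members and 0.37 over 17326 genes. With any 1 of the 12 libraries left out the value of NOP14 was 0.458 to 0.556 and passed. The count there was 2 without replicate 2 of ISRIB with asparagine at 24 h.

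Whether the drug changed the response to withdrawal was tested as an interaction. At 24 h it was positive for RRS1 (0.81 ± 0.12, SE, adjusted p = 0.000284) and negative for LTV1 (-1.003 ± 0.28), GNL3 (-0.78 ± 0.23), WDR43 (-0.77 ± 0.18) and NCL (-0.75 ± 0.19), with adjusted p of 0.0124 to 0.0358. Of all genes 3.48% had a positive and 5.59% a negative interaction. GC content ran with the interaction too, with Pearson's r of 0.69 over the 40 members and 0.46 over 17326 genes, and with 56.3% GC for RRS1 against a median of 41.6% (40.3% to 47.2%) for the 4 negative members. With the GC offset the values were 0.59 for RRS1, -0.76 for LTV1, -0.54 for GNL3, -0.52 for WDR43 and -0.70 for NCL, and all 5 passed. They were among 3 positive and 9 negative members, counts given without the share of all genes in that fit. With the libraries of most negative GC slope left out they were 0.73, -0.73, -0.61, -0.68 and -0.63 in this order. RRS1 and WDR43 passed without any 1 of the 12 libraries. The count of 5 was 8 without replicate 1 of ISRIB with asparagine. It was 2 without replicate 1 of vehicle without asparagine, without replicate 2 or 3 of vehicle with asparagine, without replicate 3 of ISRIB with asparagine and without replicate 3 of ISRIB without asparagine, and 3 without replicate 1 of ISRIB without asparagine or replicate 3 of vehicle without asparagine. NOB1 had the largest adjusted p (-0.01 ± 0.14, SE, adjusted p = 0.97).

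At 6 h 0 members had an interaction that passed the edgeR test, with 0.718% of all genes passing in either direction. An unadjusted p below 0.05 was found for 2 of 40 members and for 954 of 17409 genes. The 2 members were RRS1 (0.41 ± 0.12, SE, adjusted p = 0.21) and NOP16 (0.39 ± 0.13, SE, adjusted p = 0.43). Of the members limma called 0 and DESeq2 called 1.

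DDX10, HEATR1, NOP58, NPM1, POLR1A and WDR12 passed in none of the 16 comparisons. Their smallest adjusted p was 0.0502, for DDX10 in ISRIB without asparagine between the times.

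The rest of the pathway was followed between the times in lists of genes outside the 41, to be read against the shares of all genes that fell: 9.47% in vehicle with, 13.2% in vehicle without, 8.62% in ISRIB with and 17.8% in ISRIB without asparagine. Of 50 other large-subunit factors 17, 10, 11 and 18 fell in this order and 0, 3, 0 and 2 rose. RRP1 (-0.82 ± 0.12, SE) and SURF6 (-0.52 ± 0.09) fell in vehicle with asparagine, and in ISRIB without asparagine MAK16 fell (-0.96 ± 0.14) and FTSJ3 rose (0.61 ± 0.07). Of 40 other small-subunit factors 8, 3, 7 and 15 fell and 0, 1, 0 and 0 rose. Among them RCL1 fell by 0.50 ± 0.11 in vehicle with and by 0.89 ± 0.11 in ISRIB without asparagine. Of 10 other RNA polymerase I subunits and factors 3, 1, 4 and 7 fell and 0 rose. Of 9 snoRNP assembly factors 2, 3, 2 and 4 fell and 0, 1, 0 and 0 rose, and ZNHIT6 was among the fallen in vehicle with (-0.45 ± 0.13) and ISRIB without asparagine (-0.90 ± 0.13).

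The cytosolic ribosomal proteins are what these factors assemble into subunits. Of 75 tested 0, 7, 0 and 7 fell in the same order and 0, 0, 0 and 3 rose, with medians of -0.07, -0.19, -0.09 and 0.05 on the log2 scale. RPL4 fell in ISRIB without asparagine (-0.79 ± 0.08, SE). Of the 14 RNA exosome genes 0, 1, 0 and 3 fell, and of the 21 RNA polymerase III genes 4, 4, 5 and 4. Of the 9 genes of the MYC network 3, 2, 3 and 2 fell and 1, 2, 2 and 3 rose in this order. Their medians were 0.245, 0.059, 0.158 and 0.209 on the log2 scale. MYC itself fell in all 4 comparisons, from -0.71 ± 0.14 in vehicle with asparagine to -1.03 ± 0.14 (SE) in ISRIB without asparagine.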

How the data were processed

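RNA from 24 PC9 cultures was sequenced. The deposited counts are read counts per gene; Bowtie2, featureCounts, DESeq2 and hg38 are named in the submitters' processing notes, with no versions. The authors also deposited log2 variance-stabilized values, with a floor of 3.45. Groups and replicate numbers come from the sample titles. Library size, 16737384 to 27495861 counts, limits the precision for low genes.

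The counts were tested with edgeR 4.0.16 (R 4.3.3, quasi-likelihood F test) after filterByExpr and TMM scaling (0.902 to 1.077), with 1 mean per group, 16 residual degrees of freedom and Benjamini-Hochberg adjustment over 17409 genes in each of 16 comparisons. The threshold was 0.05. The labels do not say what the replicate numbers mark, and p-values measure the spread between these samples. CPM uses the scaled library sizes. Steps were tested on simulated data. The alternatives were RLE scaling, no filter, a replicate block, the compared groups alone, a GC offset, DESeq2 1.42.0, limma 3.58.1 on the log2 values and each library left out. Leaving out the 3 libraries of most negative GC slope was added after seeing the data.

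Same-numbered libraries deviated together (all 3 r over 0.1) in the vehicle groups compared for withdrawal. The r was 0.304 to 0.339 at 6 h and 0.187 to 0.35 at 24 h. The same held for ISRIB against vehicle without asparagine at 6 h (0.327 to 0.47). The main fit had no term for the replicate number and compared the groups unpaired in every comparison. Replicate numbers entered only the alternatives with a replicate block. GENCODE 29 gave positions and GC content, and 36620 of 37411 gene IDs matched. The members and lists were chosen with earlier results of these data known. In each comparison up to 12 called members by smallest adjusted p and members with the largest adjusted p were named, others being named by role or chosen after their values were seen. The level of 1 of the 11 markers of other cell types is not reported here.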

Additional observations from a re-analysis of the deposited data

Results flagged for a closer look

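The response to asparagine withdrawal differed between conditions, by a test of the difference itself (edgeR), for 8 values of 8 members. With ISRIB against vehicle at 24 h it was higher for RRS1 by 0.81 on the log2 scale, and the difference was -0.77 for WDR43, -0.75 for NCL, -1.003 for LTV1 and -0.78 for GNL3. In vehicle, RRS1 was at 34.0, 34.5 and 30.9 CPM with asparagine and 33.3, 36.4 and 30.5 CPM without it at 24 h, whereas the ISRIB libraries without asparagine had 60.1, 59.7 and 54.8 CPM. Between 24 and 6 h with vehicle the response differed by 0.67 for UBTF and 0.48 for RRP1B. RRP1B was at 93.8, 96.6 and 92.3 CPM with and at 104.4, 97.6 and 103.3 CPM without asparagine at 24 h, the reverse of its order at 6 h. Its difference between the media at 24 h did not pass the test. The call of RRP1B between the times was lost in 9 of 12 fits with 1 library left out. Between 24 and 6 h with ISRIB the response differed by 0.52 for NOP14.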

How the results depend on the processing

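Of 124 called values of members 0 changed direction under any alternative, 51 passed under every one and 70 under every one other than a library left out. Counts of called members that moved by more than 1.5 times follow, and where the cause is not stated it was not tested. They are given without the share of all genes called in the same fit. They describe how the calls depend on the fit and are no result about the members. For withdrawal with vehicle at 6 h (7 members) the count was 4 with no filter, 12 with the GC offset and 12 with the GC offset and replicate block; at 24 h (0) it was 1 with no filter. For withdrawal with ISRIB at 6 h (1) it was 0 with no filter, 0 in the groups alone, 2 with the replicate block, 3 with the GC offset, 3 with offset and block and 2 by DESeq2; at 24 h (12) it was 4 in the groups alone, 22 with the offset and 22 with offset and block. For ISRIB without asparagine at 6 h (1) it was 0 with no filter, 0 in the groups alone, 5 with the offset, 11 with offset and block, 4 by DESeq2 and 2 with the 3 libraries of lowest GC slope left out. For the interaction at 6 h (0) DESeq2 gave 1. For the interaction at 24 h (5) the count was 9 with no filter, 12 with the offset, 14 with offset and block, 8 by DESeq2 and 8 without those 3 libraries. Between the times it was 19 in vehicle without asparagine (12) with offset and block and 19 without those libraries, and in ISRIB with asparagine (22) 6 in the groups alone and 34 with offset and block. For the time difference of the withdrawal response with vehicle (2) it was 6 with the offset, 7 with offset and block, 5 by DESeq2 and 6 without those libraries; with ISRIB (1) it was 2 with no filter, 2 with the replicate block, 0 in the groups alone, 4 with the offset, 5 with offset and block and 2 by DESeq2.

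With 1 library left out the counts ran from 2 to 4 for withdrawal with vehicle at 6 h, 0 to 0 at 24 h, 0 to 2 for withdrawal with ISRIB at 6 h and 6 to 14 at 24 h. They ran from 1 to 2 for ISRIB without asparagine at 6 h, 5 to 14 at 24 h, 0 to 0 for ISRIB with asparagine at both times, 0 to 0 for the interaction at 6 h and 2 to 8 at 24 h. Between the times they ran from 13 to 20 and 6 to 12 in vehicle with and without asparagine, 15 to 24 and 20 to 23 in ISRIB with and without it, and 1 to 2 for each time difference of the withdrawal response. The replicate block ended 1 call, that of NOP10 with ISRIB without asparagine at 24 h (0.33, adjusted p = 0.0509). Of the 24 libraries 15 correlated best with their own number. Members with few counts are the least precise.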

Other observations

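Members host small nucleolar RNA genes in their introns. GENCODE places 25 such genes inside 7 members, 15 of them were in the count table and 0 had enough counts to be tested.

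Among the RNA polymerase III genes CRCP and POLR3D fell between 6 and 24 h in vehicle with asparagine (-0.55 ± 0.08 and -0.57 ± 0.11, SE, log2) and in ISRIB without asparagine (-0.43 ± 0.08 and -0.62 ± 0.11), tested with edgeR. Of the exosome genes DIS3, a catalytic subunit, fell in ISRIB without asparagine (-0.72 ± 0.14) and EXOSC1 rose (0.50 ± 0.11). In the same comparison MXD3, which pairs with MAX as MYC does, rose by 1.30 ± 0.18.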
